A study of Rattus norvegicus with 12 samples.

Results

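Collagen transcripts were compared between cultured gmASTRs and wmASTRs over 8 genes of 5 collagen types, out of 9394 genes in the count table after the authors' filter on low counts and 17941 genes listed in all. The 8 genes are the fibrillar collagens Col3a1 and Col5a3, the basement membrane collagen Col4a1, the beaded filament collagens Col6a1 and Col6a2, the hexagonal network collagen Col8a1, and Col9a2 and Col12a1, which belong to the collagens that sit on the surface of fibrils (FACIT, fibril-associated collagens with interrupted triple helices). All 8 passed the filter. They were taken from the study's additional gene lists, where a symbol stands beside an identifier or beside the 12 CPM values of its row. 7 of them come from a list of extracellular matrix genes that the study picked on these same libraries because they differed between the groups, and Col3a1 has a known name because the part of the study's list of all genes that could be read holds genes with a positive fold change. Their directions are therefore not independent evidence that collagens differ.

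The gmASTRs were astrocytes grown from the cerebral cortex of young adult female Wistar rats after the meninges had been taken off. The wmASTRs were grown from what remained of the same brains without the amygdala, which holds white matter tracts such as the corpus callosum and also hippocampus, thalamus and basal ganglia, so that deep grey matter is part of this group. Both kinds of culture were made side by side, kept for 20 days on poly-L-lysine in medium with serum, passaged with trypsin at least once, and left untreated, and no genetic change was made. Each group has 6 libraries from independent culture preparations, and the bulk RNA of a culture includes every cell type that it holds.

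Collagens are built from 3 chains wound into a triple helix, and the type decides what the helices build. Fibrillar collagens pack into fibrils, FACIT collagens decorate those fibrils, type IV collagen forms the sheet of basement membranes, type VI forms beaded microfilaments between fibrils and basement membranes, and type VIII forms hexagonal lattices. In the brain, fibrillar collagens are known mainly from the meninges and the walls of larger vessels, and type IV from the basement membranes of vessels and of the brain surface, where astrocyte endfeet and vascular cells meet.

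The start regions of 3 of the genes are shown because these genes mark the range of the results, Col9a2 as the gene with the greatest excess in gmASTRs, Col6a1 as that with the greatest excess in wmASTRs, and Col4a1 as the most abundant of the 8 in wmASTRs. RefSeq gives a window of 300 bases, 250 before to 50 after the start, for 5 of the 8 genes on the rat build GRCr8, which is not the build of the counts. The windows lie at chr5:139892548-139892847 for Col9a2, chr20:11905440-11905739 for Col6a1 and chr16:84885347-84885646 for Col4a1, each on the + strand. Capitals mark matches, on either strand, to the motifs searched, which were the GC box GGGCGG, the CCAAT box CCAAT, the TATA box TATAAA, the AP-1 motif TGANTCA, the TEAD motif CATTCC and the SMAD motif CAGAC.
Col9a2: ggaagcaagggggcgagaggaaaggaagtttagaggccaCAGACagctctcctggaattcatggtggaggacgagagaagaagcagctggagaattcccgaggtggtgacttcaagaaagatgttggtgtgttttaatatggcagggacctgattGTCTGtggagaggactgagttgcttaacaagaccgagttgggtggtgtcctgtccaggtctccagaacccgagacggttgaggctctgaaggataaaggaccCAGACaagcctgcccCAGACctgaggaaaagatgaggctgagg
Col6a1: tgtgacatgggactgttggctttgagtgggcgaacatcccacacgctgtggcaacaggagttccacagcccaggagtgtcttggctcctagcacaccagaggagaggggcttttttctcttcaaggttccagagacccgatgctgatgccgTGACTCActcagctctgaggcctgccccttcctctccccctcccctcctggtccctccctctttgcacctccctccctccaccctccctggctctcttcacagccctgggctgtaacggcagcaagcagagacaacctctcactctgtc
Col4a1: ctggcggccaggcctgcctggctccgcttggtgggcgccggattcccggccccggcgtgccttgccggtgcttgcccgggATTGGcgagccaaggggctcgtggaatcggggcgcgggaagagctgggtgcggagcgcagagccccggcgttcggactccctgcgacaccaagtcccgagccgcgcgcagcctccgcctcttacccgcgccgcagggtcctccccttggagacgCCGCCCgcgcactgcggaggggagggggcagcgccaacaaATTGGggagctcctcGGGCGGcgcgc

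The GC box was matched 2 times in the Col4a1 window, 4 times in that of Col8a1 and 3 times in that of Col5a3, and not in those of Col9a2 and Col6a1, while 33.1% of the 33469 rat windows of this length hold it. The CCAAT box was matched 2 times for Col4a1 and 1 time for Col5a3 (37.5% of all windows hold it). The AP-1 motif was matched 1 time, for Col6a1 (7.33% of all windows), and the SMAD motif 4 times for Col9a2 and 1 time for Col8a1 (50.1% of all windows). The TATA box (14.2%) and the TEAD motif (14.2%) had no match in the 5 windows, and no matches overlapped each other. The share of G and C was 53% for Col9a2, 59.7% for Col6a1, 62.7% for Col8a1, 69% for Col5a3 and 75% for Col4a1, and the median of all windows was 51.7%. The Col4a1 window shares 176 bases with that of Col4a2, the gene of its partner chain, which starts on the opposite strand. These matches describe the letters in the windows and say nothing of what binds there.

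Values are CPM, the counts of a gene scaled to the same total in each library, as mean ± SD over 6 libraries where a mean is given. The libraries were read from the 3′ end of the transcripts, so a count does not grow with transcript length. The test was the quasi-likelihood test of edgeR, fitted to all genes of the filtered table, with a false discovery rate (FDR) under 0.05 taken as a change. The log2 fold change (log2FC) is above 0 where gmASTRs held more transcript, and is given ± its standard error (SE). Libraries held 4920488 to 7207118 counts, and each of the 8 genes was counted 52 to 15318 times in every library, so that counting error was small beside the spread between cultures for most of them. That spread is between culture preparations of animals, and each animal gave both kinds of culture.

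Marker genes of astrocytes and of other cell types were also measured. Of 14 astrocyte markers, 7 have a known name here. Their sum was 3826 to 5528 CPM in gmASTRs and 2269 to 5830.3 CPM in wmASTRs and consisted mostly of Gja1, while Gfap was at 0 counts in all 6 gmASTR libraries and at 1.39 to 10.6 CPM in wmASTRs. Of the 7, 3 were higher in wmASTRs (Gfap, Aqp4 and Slc1a3), 3 did not pass the test, and Slc4a4 was higher in gmASTRs, with 93.4 ± 45.9 CPM there and 18 ± 10.7 CPM in wmASTRs. Leptomeningeal markers (10 of 16 named) summed to 1030 to 6345 CPM in gmASTRs and 425 to 931 CPM in wmASTRs. Of the 10, 6 were higher in gmASTRs, 1, Ptgds, was higher in wmASTRs, and 3 did not pass the test. Cldn11 (1852 ± 1442 CPM) and Cdh1 (891 ± 425 CPM) made up most of the mean gmASTR sum of 3933 CPM. Pericyte and smooth muscle markers (3 of 12 named) summed to 64 to 192 CPM in gmASTRs and 424 to 1142 CPM in wmASTRs, and all 3 were higher in wmASTRs. Endothelial markers (5 of 14 named) summed to 17.9 to 77.9 CPM in gmASTRs and 43.8 to 325 CPM in wmASTRs. Of these 5, Esam and Vwa1 were higher in wmASTRs and 3 did not pass the test, and Esam made up most of the wmASTR sum, with 107 ± 119 CPM. Microglia markers (7 of 13 named) summed to 5.99 to 62.6 CPM in gmASTRs and 96.7 to 329 CPM in wmASTRs, 6 of them being higher in wmASTRs. Oligodendrocyte markers (4 of 11 named) summed to 0.947 to 19.9 CPM in gmASTRs and 12 to 56.7 CPM in wmASTRs, with 3 higher in wmASTRs and 1, Myrf, in gmASTRs. Ttr, the only named gene of 8 choroid plexus markers, was at 0 to 3.98 CPM in gmASTRs and 4.65 to 376 CPM in wmASTRs, with no overlap. Of 6 neuron markers 2 were named, 1 higher in each group, and their sum was 14.9 to 34.5 CPM in gmASTRs and 13.1 to 39.4 CPM in wmASTRs. Names come from the part of the study's list that holds positive fold changes and from its lists of chosen genes. A marker lower in gmASTRs therefore has a name mainly where the study had listed it, so these counts and sums depend on the naming. The part of these cell types in the collagen values was not tested. In bulk RNA, fewer cells of a type cannot be told apart from less RNA per cell.

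Single libraries stood apart in these sums. In gmASTR library 5 the leptomeningeal markers summed to 1030 CPM, against 2709 to 6345 CPM in the other gmASTR libraries. In wmASTR library 4 the astrocyte markers summed to 2269 CPM (other wmASTR libraries 4072 to 5830.3) and the pericyte and smooth muscle markers to 1142 CPM (others 424 to 589). The same library held the highest endothelial sum, 325 CPM, and the highest microglia sum, 329 CPM (others 96.7 to 137). Endothelial markers summed to 251 CPM in wmASTR library 6 as well, against 43.8 to 81.2 CPM in wmASTR libraries 1, 2, 3 and 5, and Ttr was 376 CPM in wmASTR library 1 (others 4.65 to 88.9). Each fold change of the 8 genes was also computed with each library left out in turn.

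Of the 8 collagen genes, 6 were higher in wmASTRs and 2, Col9a2 and Col3a1, were higher in gmASTRs, where 12.3% of all 9394 genes differed in either direction, 6.69% being higher in wmASTRs and 5.64% higher in gmASTRs. In 6 of the 8 genes the libraries of both groups did not overlap, as against 5.78% of all genes. The median log2FC of the 8 genes was -1.17 and that of all genes 0.02. The 6 to 2 division was also found with gmASTR library 5 and wmASTR library 4 left out together. Since 7 of the genes had been picked for a difference in these libraries, the count describes the list and is no test of the family.

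**Figure D1:**
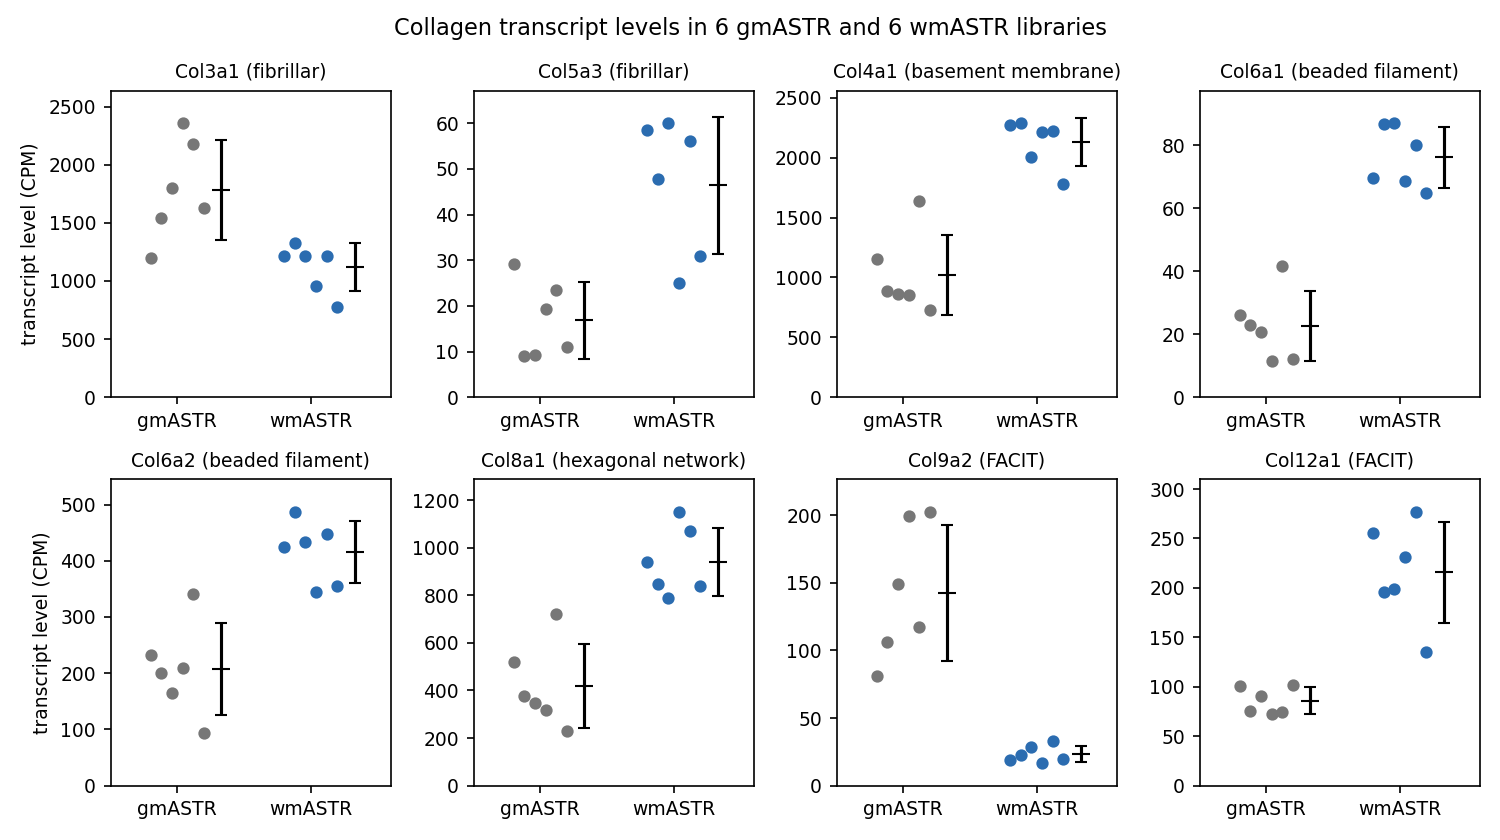
Transcript levels of the 8 collagen genes, in CPM on a linear axis from 0, in 6 gmASTR libraries (grey) and 6 wmASTR libraries (blue), with the mean and SD beside the points and the collagen type in each title. The groups overlap in Col3a1 and Col5a3, and gmASTR library 5 is the highest grey point in Col4a1, Col6a1, Col6a2 and Col8a1.

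The fibrillar collagens were divided between the groups. Col3a1, the single chain of type III collagen, which forms fibrils of its own or together with type I, was at 1197, 1541, 1797, 2356, 2179 and 1625 CPM in gmASTR libraries 1 to 6 and 1211, 1326, 1215, 957, 1211 and 775 CPM in wmASTR libraries 1 to 6. gmASTR library 1 lay inside the wmASTR range and the other 5 gmASTR libraries lay above it. The mean was 1782 ± 427 CPM over the gmASTR and 1116 ± 207 CPM over the wmASTR libraries (log2FC 0.62 ± 0.15, FDR 0.0109), a 1.53-fold excess and the smallest difference of the 8. By the exact permutation test over all divisions of the libraries into 6 and 6, its two-sided p was 0.0108. With any library left out the log2FC was 0.52 to 0.70 with an FDR of at most 0.0314, and without gmASTR library 5 and wmASTR library 4 it was 0.49 with an FDR of 0.0323. Col3a1 was among the most abundant transcripts of both groups, at the 99.3 percentile of all genes in gmASTRs and the 98.9 percentile in wmASTRs. The sum of the named leptomeningeal markers was also higher in gmASTRs. Of the gmASTR libraries, library 5 had the lowest marker sum (1030 CPM) with 2179 CPM of Col3a1, and library 4 was highest in both. The part of that sum in the Col3a1 difference was not tested.

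Col5a3, a minor chain of type V collagen, which joins fibrils and limits their width, went the other way. It was at 29.2, 9.05, 9.17, 19.2, 23.4 and 11 CPM in gmASTR libraries 1 to 6 and 58.5, 47.8, 60, 25, 56.1 and 30.9 CPM in wmASTR libraries 1 to 6. The groups overlapped, since wmASTR library 4 lay below gmASTR library 1. Its mean was 16.8 ± 8.42 CPM over the gmASTR and 46.4 ± 15 CPM over the wmASTR libraries (log2FC -1.52 ± 0.31, FDR 0.00281), and the exact permutation test gave p = 0.00433. Col5a3 was the least counted of the 8 genes in gmASTRs, where 52 to 143 reads per library gave a counting error of 10.5% of the mean, while the libraries varied by 50%. The log2FC without wmASTR library 4 was -1.64. As Col3a1 was far more abundant, the summed level of both fibrillar genes followed Col3a1 and was 1799 ± 427 CPM in gmASTRs and 1162 ± 219 CPM in wmASTRs.

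Col4a1, which encodes the main chain of the type IV network of basement membranes, was higher in every wmASTR library than in any gmASTR library. It was at 1154, 884, 859.9, 852, 1642 and 726 CPM in gmASTR libraries 1 to 6 and 2269.7, 2287, 2004, 2212, 2226 and 1779 CPM in wmASTR libraries 1 to 6. The wmASTR libraries lay close together, with a coefficient of variation (CV) of 9.37%, whereas the gmASTR libraries varied by 32.9% with library 5 on top. The mean was 1019.5 ± 336 CPM over the gmASTR and 2129.7 ± 199.6 CPM over the wmASTR libraries (log2FC -1.11 ± 0.17, FDR 0.000366), that is 2.16-fold more in wmASTRs. Without gmASTR library 5 the log2FC was -1.33, and without that library and wmASTR library 4 it was -1.32. In wmASTRs Col4a1 stood at the 99.4 percentile of all genes. 2 uncharacterised non-coding genes overlap Col4a1 in RefSeq, and the counting without strand does not separate their reads from those of Col4a1. The 3 named pericyte and smooth muscle markers, from cells that also make type IV collagen, were higher in the same group. Which of these markers have a name depends on the study's lists, and their part in the difference was not tested.

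Both genes of type VI collagen were higher in wmASTRs, by different amounts. Col6a1 was at 26.1, 23, 20.6, 11.5, 41.6 and 12.2 CPM in gmASTR libraries 1 to 6 and 69.4, 86.8, 86.9, 68.7, 79.9 and 64.8 CPM in wmASTR libraries 1 to 6. The groups were well apart, the lowest wmASTR library being 64.8 CPM and the highest gmASTR library 41.6 CPM. The mean was 22.5 ± 11.1 CPM over the gmASTR and 76.1 ± 9.72 CPM over the wmASTR libraries (log2FC -1.80 ± 0.26, FDR 0.000204), and this 3.49-fold excess in wmASTRs was the largest in that direction among the 8 genes.

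Col6a2, whose product assembles with that of Col6a1 and another chain into the type VI monomer, was at 233, 199.5, 164, 209.6, 342 and 94.1 CPM in gmASTR libraries 1 to 6 and 424, 487, 433, 345, 448 and 356 CPM in wmASTR libraries 1 to 6. The groups only just failed to overlap, as gmASTR library 5 reached 342 CPM and wmASTR library 4 fell to 345 CPM. The mean was 207 ± 81.7 CPM over the gmASTR and 416 ± 54.9 CPM over the wmASTR libraries (log2FC -1.06 ± 0.21, FDR 0.00289). With gmASTR library 5 left out the log2FC was -1.29 for Col6a2 and -2.10 for Col6a1. Both genes lie on chromosome 20 with 2 genes between them in RefSeq.

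Col8a1, a chain of the short-chain collagen of hexagonal lattices, which is known from Descemet's membrane and from vessel walls, was at 518, 375, 349, 317, 721 and 228 CPM in gmASTR libraries 1 to 6 and 939, 847, 789, 1151, 1072 and 838 CPM in wmASTR libraries 1 to 6. No libraries overlapped, and gmASTR library 5, at 721 CPM, came nearest to the wmASTR range. The mean was 418 ± 176 CPM over the gmASTR and 939 ± 144 CPM over the wmASTR libraries (log2FC -1.22 ± 0.22, FDR 0.0011), that is 2.33-fold more in wmASTRs. The log2FC was -1.48 without gmASTR library 5 and -1.15 without wmASTR library 4, which held the highest level of the group.

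The FACIT collagens were also divided. Col9a2, a chain of type IX collagen, which coats the type II fibrils of cartilage and of the vitreous, was at 80.9, 107, 149.6, 199.6, 118 and 203 CPM in gmASTR libraries 1 to 6 and 19.3, 22.7, 28.7, 16.8, 32.8 and 20 CPM in wmASTR libraries 1 to 6. The lowest gmASTR library was above 32.8 CPM, the highest wmASTR value, by more than the whole wmASTR range. The mean was 143 ± 50.3 CPM over the gmASTR and 23.4 ± 6.16 CPM over the wmASTR libraries (log2FC 2.54 ± 0.22, FDR 2.73e-06). This was a 5.8-fold excess in gmASTRs and the largest difference of the 8 genes in either direction. Its rank among all genes was the 86.3 percentile in gmASTRs and the 48.3 percentile in wmASTRs. The sum of the named leptomeningeal markers was higher in gmASTRs too, and its part in the Col9a2 difference was not tested. A non-coding gene overlaps Col9a2 in RefSeq, with the same limit on strand as for Col4a1.

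Col12a1, the single chain of type XII collagen, which binds to type I fibrils in dense connective tissue, was at 101, 75.2, 90.4, 72.7, 74.6 and 102 CPM in gmASTR libraries 1 to 6 and 256, 196, 199, 232, 277 and 135 CPM in wmASTR libraries 1 to 6. No libraries overlapped, and the gmASTR libraries varied by only 15.7%, the lowest CV of the 8 genes in that group. The mean was 85.9 ± 13.5 CPM over the gmASTR and 216 ± 50.6 CPM over the wmASTR libraries (log2FC -1.39 ± 0.15, FDR 2.68e-05). Because both FACIT genes moved in opposite directions, their summed level was 229 ± 52 CPM in gmASTRs and 239 ± 53 CPM in wmASTRs. That difference was within the spread of either group.

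For each of the 6 genes whose groups did not overlap, Col4a1, Col6a1, Col6a2, Col8a1, Col9a2 and Col12a1, the exact permutation test gave p = 0.00216, the smallest value that 6 libraries against 6 can give. With any library left out, no log2FC of the 8 genes changed direction or call. The widest range was that of Col6a1, -2.10 to -1.67, and that of Col9a2 was 2.41 to 2.65.

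**Figure D2:**
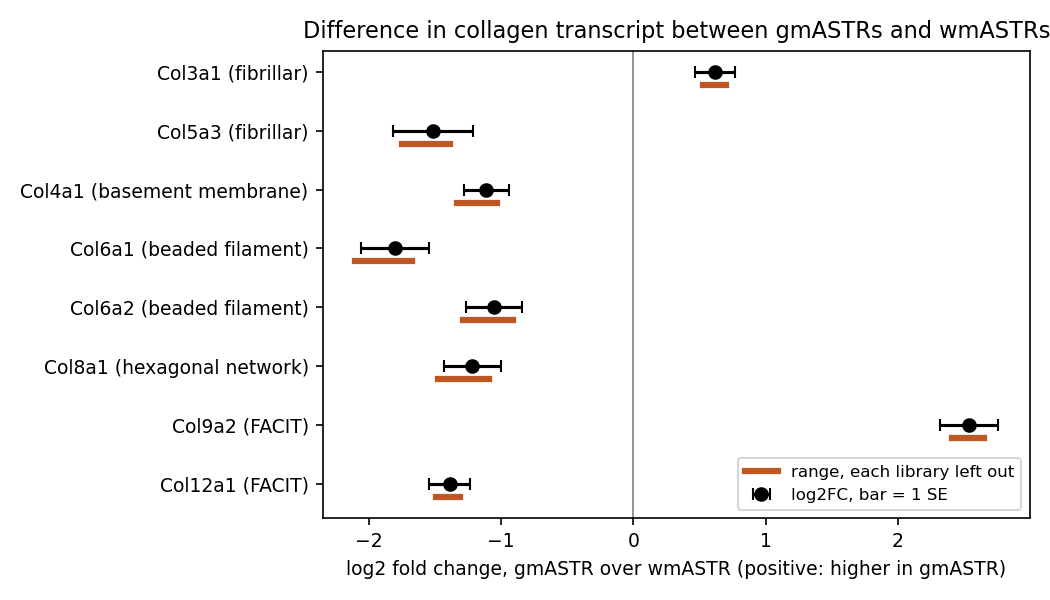
Log2 fold change of gmASTRs over wmASTRs for the 8 collagen genes (black points, bars 1 SE), with the range over fits that leave out each library in turn (orange lines). Col9a2 and Col3a1 lie above 0 and the other 6 below, and no orange line crosses 0.

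The gmASTR libraries differed more among themselves than the wmASTR libraries did in most of these genes. The CV was higher in gmASTRs for 7 of the 8 genes, Col12a1 being the exception (15.7% against 23.5%). gmASTR library 5 held the highest gmASTR level in 4 genes, Col4a1, Col6a1, Col6a2 and Col8a1, all of them higher in wmASTRs. gmASTR library 6 held the lowest level in 3 of those 4 and the highest in Col9a2 and Col12a1.

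The makeup of the collagen transcripts also differed. Summed over the 8 genes, the level was 3695 ± 789 CPM in gmASTRs and 4962 ± 518 CPM in wmASTRs. Col3a1 made up 48.5% ± 8.25 of the sum in gmASTRs and 22.4% ± 2.66 in wmASTRs, and Col4a1 made up 27.4% ± 5.06 of the sum in gmASTRs and 43% ± 1.33 in wmASTRs. In each of the 6 gmASTR libraries Col3a1 was the most abundant of the 8, and in each of the 6 wmASTR libraries Col4a1 was. Col8a1 held 11.1% ± 3.22 of the sum in gmASTRs and 19% ± 2.74 in wmASTRs, and Col6a2 held 5.49% ± 1.43 of the sum in gmASTRs and 8.39% ± 0.85 in wmASTRs. Col9a2 held 4.01% ± 1.7 of the sum in gmASTRs and 0.473% ± 0.115 in wmASTRs, while Col5a3 and Col6a1 stayed under 2% in every library. Col1a1, Col1a2 and other collagen genes without a known name here are not part of this sum.

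**Figure D3:**
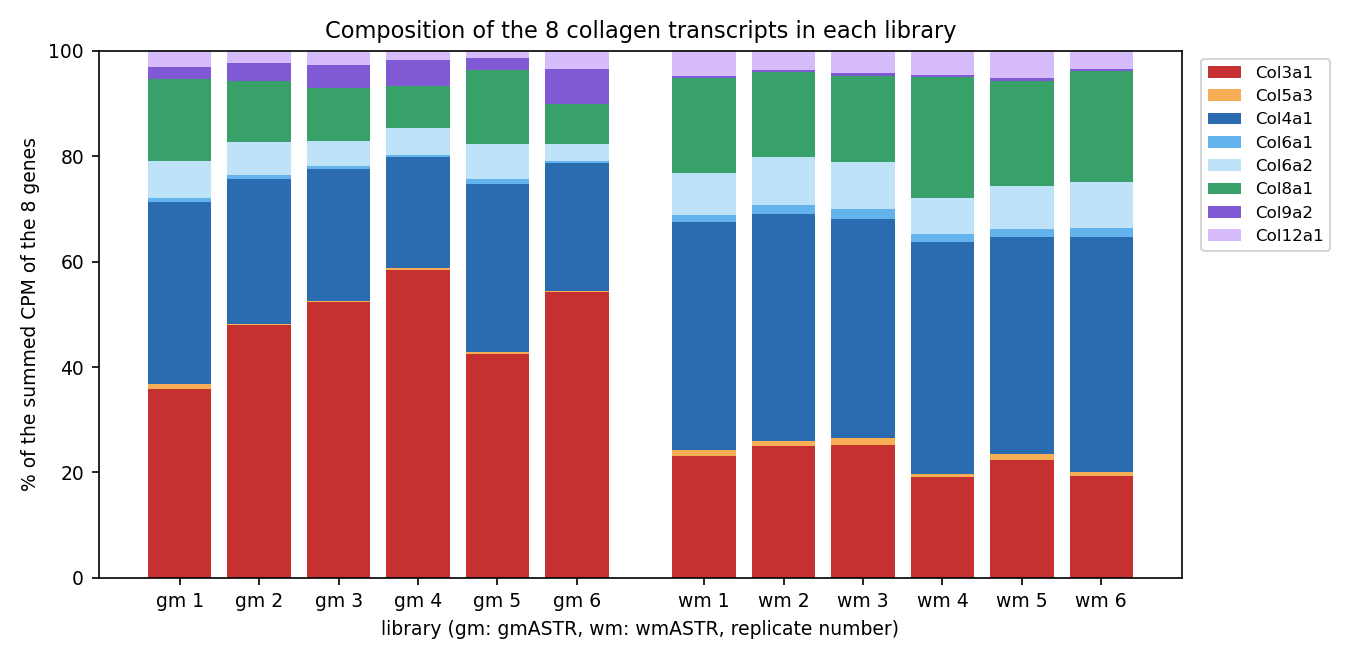
Share of each of the 8 collagen genes in their summed CPM, in percent, for gmASTR libraries 1 to 6 and wmASTR libraries 1 to 6. Col3a1 takes 35.9% to 58.3% in gmASTRs and 19.1% to 25.2% in wmASTRs, and Col4a1 takes 21.1% to 34.6% and 41.2% to 44.5%.

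To ask whether genes of different types moved by different amounts, the ratio of 2 genes within each library was compared between the groups for all 28 pairs, with exact two-sided permutation tests on log2(CPM + 1) and Benjamini-Hochberg adjustment over the 28. In 16 pairs the ratio differed. 12 of these join a gene higher in gmASTRs with a gene higher in wmASTRs, and their difference follows from the directions. Of the 16 pairs of genes that are higher in the same group, 4 differed. With gmASTR library 5 and wmASTR library 4 left out, the number over all pairs was again 16. Each animal gave both kinds of culture, but the labels do not say that a shared replicate number marks a shared animal. With swaps only within a replicate number 0 of the 28 pairs passed after adjustment, against 16 at an unadjusted p under 0.05, with 0.0547 as the adjusted p of each of the 16.

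Within type VI collagen, the ratio of Col6a1 to Col6a2 counts was 0.112, 0.115, 0.125, 0.0547, 0.122 and 0.13 in gmASTR libraries 1 to 6 and 0.164, 0.178, 0.2, 0.199, 0.178 and 0.182 in wmASTR libraries 1 to 6. The groups did not overlap, and gmASTR library 4, with 59 Col6a1 counts, was far below the rest. The mean ratio was 0.11 ± 0.0277 in gmASTRs and 0.184 ± 0.014 in wmASTRs (-0.74 on the log2 scale, adjusted p = 0.00404 by the exact permutation test), so fewer Col6a1 transcripts were counted per Col6a2 transcript in gmASTRs. Col6a1 also changed more than Col4a1, the Col4a1 to Col6a1 ratio being 49.6 ± 14.3 in gmASTRs and 28.3 ± 3.65 in wmASTRs (0.72 on the log2 scale, adjusted p = 0.00404 by the exact permutation test), and more than Col8a1 (-0.58 on the log2 scale, adjusted p = 0.0114 by the exact permutation test).

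Col9a2 changed more than Col3a1, the other gene higher in gmASTRs. The ratio of Col3a1 to Col9a2 counts ranged from 8.02 to 18.5 over the gmASTR libraries and from 36.9 to 62.9 over the wmASTR libraries (-1.86 on the log2 scale, adjusted p = 0.00404 by the exact permutation test). Between Col4a1 and Col8a1, of the basement membrane and the hexagonal network, no difference in ratio was found, the means being 2.53 ± 0.356 in gmASTRs and 2.3 ± 0.302 in wmASTRs (0.14 on the log2 scale, adjusted p = 0.333 by the exact permutation test). Nor was one found between Col4a1 and Col6a2 (-0.02 on the log2 scale, adjusted p = 0.892 by the exact permutation test), where the ratio ranged from 4.07 to 7.71 over the gmASTR libraries and from 4.62 to 6.41 over the wmASTR libraries. Nor was one found between Col6a2 and Col8a1 (0.16 on the log2 scale, adjusted p = 0.496 by the exact permutation test). Thus the 2 genes of type VI differed from each other in the size of the change, while Col6a2, Col4a1 and Col8a1, of 3 types, were not told apart by these tests, which does not show that they changed by the same amount.

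**Figure D4:**
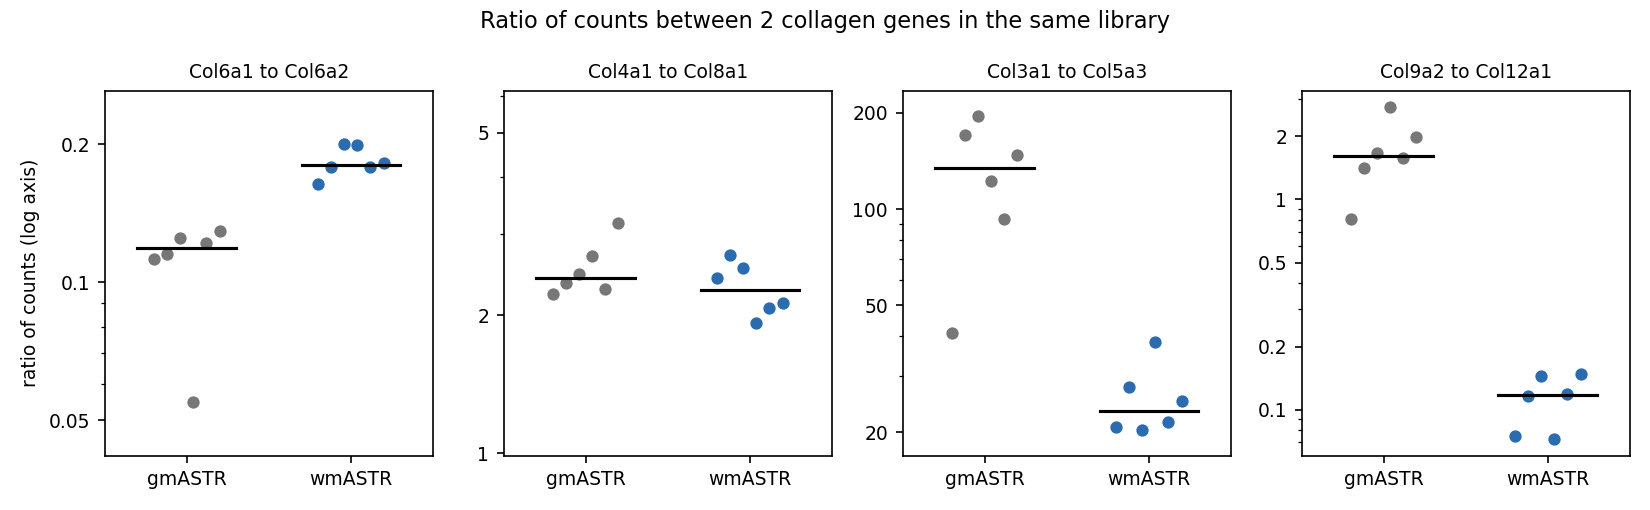
Ratio of the counts of 2 collagen genes in the same library, on log axes, for 6 gmASTR libraries (grey) and 6 wmASTR libraries (blue), with black lines at the medians. The Col6a1 to Col6a2, Col3a1 to Col5a3 and Col9a2 to Col12a1 ratios do not overlap between groups, and the Col4a1 to Col8a1 ratio does.

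The pattern over the 12 libraries was also compared with that of 720 named genes of at least 20 CPM, by the root mean square difference of log2 levels after each gene's mean was taken off, where 0 is an identical pattern. Nearest to Col4a1 were Fbn1 (0.187), Col8a1 (0.187) and Ltbp2 (0.226), that is fibrillin 1, another collagen and a microfibril protein of the family of latent TGF-beta binding proteins. Nearest to Col8a1 were Sulf1 (0.176), Ltbp2 (0.179) and Col4a1 (0.187), Sulf1 being an enzyme that trims heparan sulfate. Nearest to Col6a1 were Ltbp2 (0.295), Hspa1b (0.339) and Ctgf (0.371), and nearest to Col6a2 were Bmp4 (0.227), Col4a1 (0.233) and Col8a1 (0.277), Bmp4 being a secreted growth factor. Nearest to Col12a1 were Lox (0.305), Thbs2 (0.384) and Col4a1 (0.394), Lox being the enzyme that cross-links collagen and elastin. Nearest to Col5a3 were Fndc1 (0.41), Svil (0.44) and Col6a2 (0.476).

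The 2 genes higher in gmASTRs had other neighbours. Nearest to Col9a2 were Scd (0.319), Gjb2 (0.375) and Foxd1 (0.395), a fatty acid desaturase, a gap junction protein and a transcription factor of the leptomeningeal marker list. Nearest to Col3a1 were Id3 (0.156), Csnk1g2 (0.163) and Marcks (0.187). These distances share depth and libraries between genes, and every pattern includes the difference between the groups. Only named genes could be neighbours. A gene lower in gmASTRs has a name mainly where the study had listed it, and 1 of those lists holds extracellular matrix genes. That matrix genes stand nearest to the collagens lower in gmASTRs therefore depends on the naming and is no evidence of a shared pattern. Whether unnamed genes lay nearer was not tested.

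Of the 45 collagen genes of the rat family that were listed, 11 have a known name here, and the other 34 were not analysed. Beside the 8 genes these are Col18a1, Col26a1 and Col4a6. Over the 11 genes 3 were higher in gmASTRs, 6 were higher in wmASTRs and 2 did not pass the test. The 3 added genes each had a log2FC above 0, and the readable part of the study's list of all genes holds positive fold changes. The count over the 11 therefore depends on which genes have a name and is no test of the family. Col26a1, a little studied collagen known from testis and ovary, was at 1.83, 7.62, 3.62, 10.6, 5.68 and 7.48 CPM in gmASTR libraries 1 to 6 and 0.184, 1.33, 0, 0, 0.145 and 0 CPM in wmASTR libraries 1 to 6. Every gmASTR library lay above every wmASTR library, but the wmASTR libraries held 0 to 8 counts each, so the size of the difference is poorly known (log2FC 4.31, and 6.08 without wmASTR library 2, quasi-likelihood FDR 0.00404 over the 15478 genes with a count, of which 7.73% differed). Col18a1, the basement membrane collagen whose end is released as endostatin, was at 48.9 ± 15.9 CPM over the gmASTR and 29.9 ± 13.4 CPM over the wmASTR libraries (log2FC 0.65 ± 0.30, FDR 0.186), and did not pass the test. Col4a6, a chain of type IV collagen found in few tissues, was at 0 counts in gmASTR libraries 3 and 6 and in wmASTR library 6 and at 7 to 45 counts in the others. Its level was 2.85 ± 3.19 CPM over the gmASTR and 2.02 ± 1.55 CPM over the wmASTR libraries (FDR 0.842), the groups overlapped, and it did not pass the test.

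Genes that process, bind or degrade collagen were followed in 5 lists of 66 genes, of which 16 have a known name here. Of these 16, none was higher in gmASTRs, 12 were higher in wmASTRs and 4 did not pass the test. Of all 9394 genes, 5.64% were higher in gmASTRs and 6.69% higher in wmASTRs. Some of these names come, like the collagens, from the study's own choice of genes that differed. Names also come from the part of its list that holds positive fold changes, and the 4 genes that did not pass each had a log2FC above 0. The named genes as a whole lean to gmASTRs, 458 of 1593 being higher there and 111 higher in wmASTRs, a lean that depends on the naming. The counts by direction therefore describe the named genes and are no test of the lists. None of 20 genes that modify and fold new collagen chains has a known name here.

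Of 14 genes that process and cross-link procollagen, only Lox has a known name here. Lox was at 1304, 937, 1051, 842, 1000 and 891 CPM in gmASTR libraries 1 to 6 and 2286, 1893, 1938, 1800.3, 2182 and 2088 CPM in wmASTR libraries 1 to 6. No libraries overlapped, and the lowest wmASTR library exceeded the highest gmASTR library by about as much as the gmASTR libraries differed among themselves (log2FC -1.08 ± 0.11, FDR 2.05e-05).

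Of 10 collagen receptors 4 were named and 2 were higher in wmASTRs. Itga11, the integrin chain that binds fibrillar collagens, was at 6.94, 0.174, 0.79, 0.778, 3.23 and 0.836 CPM in gmASTR libraries 1 to 6 and 23.5, 16.9, 13.5, 20.2, 27 and 19.7 CPM in wmASTR libraries 1 to 6. It was near the limit of counting in 4 gmASTR libraries and above 13 CPM in every wmASTR library (log2FC -3.32 ± 0.57, FDR 0.000785). The size of this difference depends on the setting, since the log2FC Itga11 gave was -4.17 without gmASTR library 1 and -4.08 with limma-voom. Itga1, the integrin chain that binds type IV collagen, was at 25.3 ± 10.5 CPM over the gmASTR and 157 ± 73.3 CPM over the wmASTR libraries (log2FC -2.70 ± 0.29, FDR 2.05e-05), with wmASTR library 4 far above the others. Itga10 (log2FC 2.23, FDR 0.275) and Mrc2, which takes up collagen for degradation (log2FC 0.65, FDR 0.391), did not pass the test. With any library left out, the log2FC of Itga10 was 1.96 to 2.94.

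Among 14 genes of collagen degradation 4 were named, and 2 were higher in wmASTRs. Mmp12, the elastase of macrophages, was at 8.82 ± 8.33 CPM over the gmASTR and 47.6 ± 25.9 CPM over the wmASTR libraries (log2FC -2.49 ± 0.59, FDR 0.00922). The size of the Mmp12 difference depends on the method, the log2FC with limma-voom being -3.37. Microglia markers were higher in wmASTRs too, and their part in the Mmp12 difference was not tested. Timp1, an inhibitor of matrix metalloproteinases, was -0.65 on the log2 scale (FDR 0.00576), and Mmp15 and Mmp16 did not pass the test. Of 15 partners in basement membranes, the laminin chains Lama1 (log2FC -1.22 ± 0.38, FDR 0.0417) and Lama5 (log2FC -1.06 ± 0.33, FDR 0.0411) were named and both were higher in wmASTRs. Both lay close to the threshold, and each lost its call in 8 of the 12 fits that left out a library. Both calls were lost without gmASTR library 1 or 2 or wmASTR library 1, 3 or 5, that of Lama1 also without gmASTR library 3 or 6 or wmASTR library 2, and that of Lama5 also without gmASTR library 4 or wmASTR library 4 or 6. The log2FC with a library left out was -1.58 to -1.06 for Lama1 and -1.36 to -0.86 for Lama5. Leaving out a library gave an FDR of up to 0.106 for Lama1 and 0.0847 for Lama5.

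Of 13 proteins that sit on or shape collagen fibrils, 5 were named and all 5 were higher in wmASTRs. Thbs2, whose loss disturbs collagen fibrils, was at 72.5, 81.5, 60.4, 56.8, 41.8 and 41.8 CPM in gmASTR libraries 1 to 6 and 214, 233, 147, 153, 165 and 98.6 CPM in wmASTR libraries 1 to 6. No libraries overlapped in Thbs2 (log2FC -1.57 ± 0.20, FDR 7.14e-05). Fn1, the fibronectin on which collagen is laid down, differed least of the 5 and its groups overlapped, with 3287 ± 717 CPM over the gmASTR and 4639.8 ± 877 CPM over the wmASTR libraries (log2FC -0.56 ± 0.15, FDR 0.0162). Postn, which takes part in collagen cross-linking, had a log2FC of -3.00 (FDR 8.27e-06), Tnc one of -2.58 (FDR 0.000203) and Matn4, a matrilin, one of -2.22 (FDR 0.00119).

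**Figure D5:**
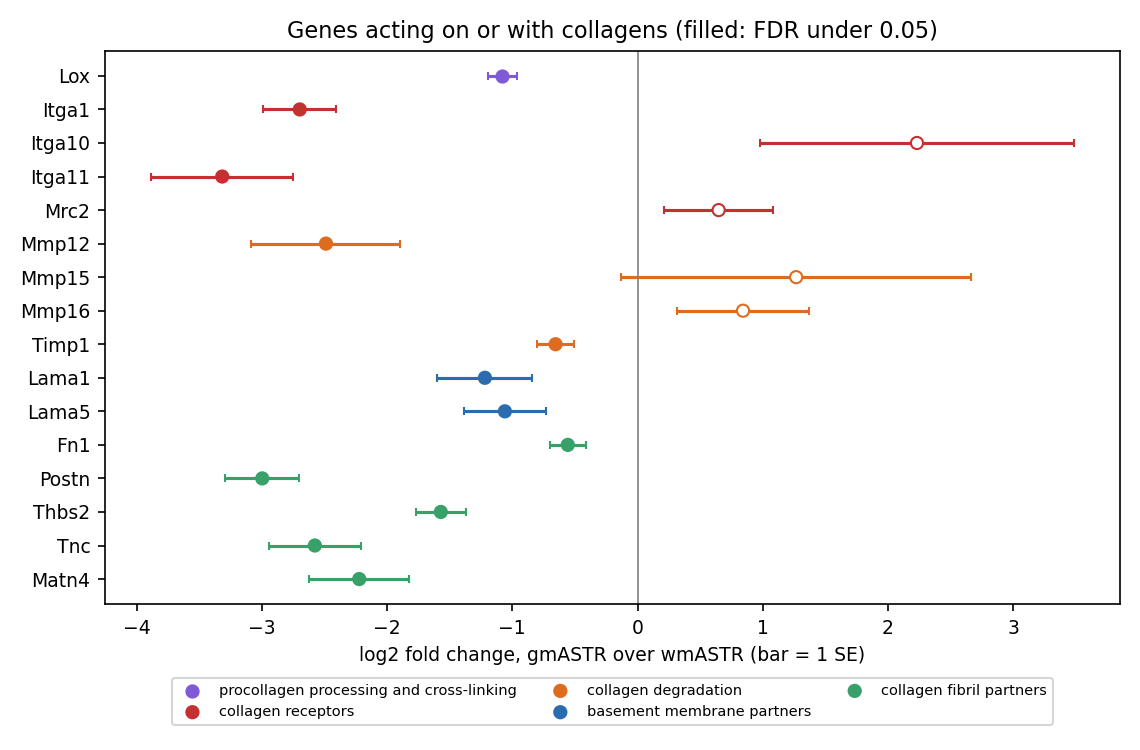
Log2 fold change of gmASTRs over wmASTRs (bars 1 SE) for the 16 named genes that process, bind or degrade collagen, coloured by list, with filled points for an FDR under 0.05. All 12 filled points lie below 0, and the 4 open points lie above it. Which genes have a name depends on the study's choice of genes and on the sign of the fold change.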

How the data were processed

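RNA of 6 gmASTR and 6 wmASTR cultures was sequenced from 3′ libraries (QuantSeq, NextSeq500). Per the submitters' processing notes and the study's methods, the authors used HISAT (0.1.5) for alignment, SAMtools (1.2) for sorting and HTSeq (0.6.1p1) to count reads per Ensembl gene, unstranded and in union mode. The deposited values are raw read counts per gene, for 17941 genes and, after a filter on low counts, for 9394, with equal counts in both tables. The labels and the methods name the genome build differently, so no gene coordinates are given on it. Use of molecular identifiers is not given in the sources used here.

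CPM, fold changes and tests were computed here with edgeR (4.0.16) in R (4.3.3), with TMM factors and the quasi-likelihood test of group alone (prior count 0.125), and p-values were adjusted by Benjamini-Hochberg over all genes of a table. Genes outside the filtered table were tested over the 15478 genes with at least 1 count. DESeq2 (1.42.0) and limma (3.58.1) served as alternatives, beside other scalings and filters, the likelihood ratio test, pseudocounts for the ratios, each library left out and the replicate number as a block. Leaving out gmASTR library 5 and wmASTR library 4 together was chosen after the marker sums were seen. The procedure was tested on simulated data. Python (3.11.15), numpy (2.4.6), pandas (2.3.3), scipy (1.17.1) and matplotlib (3.10.9) were used for the rest.

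The count tables hold Ensembl identifiers only. Symbols came from the study's additional file, beside an identifier (2010) or by matching 12 CPM values to within 0.5 counts (85). 2 of the 8 genes were named beside their identifier, and for the 6 named by values only, the next best gene was off by at least 82 counts in a library. Of 87 matches by values to a gene whose identifier had a name, 2 gave another name. The 8 genes, the lists and the rule for named genes were chosen with earlier results of these data known. The rule names the 8 genes, the other collagen genes, up to 3 genes per list by smallest FDR, collagen receptors, and the 3 genes nearest in pattern. Further genes of the lists were named after their values were seen. Protein sequences were not used here. A library resolves 0.416 to 0.610 CPM with 3 counts.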

Additional observations from a re-analysis of the deposited data

Results flagged for a closer look

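In groups of 6 libraries, a library far from the rest of its group was looked for in 54 groups, those of the collagen genes and of the genes that act on collagen. Chance alone gives about 1 such library in 20 groups, and 5 were found. None was a library of the 8 collagen genes. Col26a1 was 1.33 CPM in wmASTR library 2 and 0 to 0.184 CPM in the other wmASTR libraries, so that all 6 values lie near the limit of counting. Itga1 was 306 CPM in wmASTR library 4, against 117 to 137 CPM in the others. Tnc was 1175 CPM in the same library, against 292 to 520 CPM. Matn4 was 36.2 CPM in wmASTR library 6, against 14.1 to 21.6 CPM. Postn was 6.48 CPM in gmASTR library 3, against 19.7 to 25.3 CPM in the other gmASTR libraries.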

How the results depend on the processing

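For the 8 collagen genes, 168 of 168 log2 fold changes over 21 alternatives kept their direction and stayed under an FDR of 0.05, the largest FDR being 0.0323, for Col3a1 with gmASTR library 5 and wmASTR library 4 left out. Scaling moved the median log2FC of all genes from 0.02 to 0.01 with RLE factors and to 0.09 with none. Libraries with the same replicate number did not deviate together (correlations -0.0188 to 0.0049), so the numbers were not taken as pairs. With the replicate block in edgeR no call of the 8 genes was lost (largest FDR 0.0248, Col3a1). With exact permutation by swaps within a replicate number, 0 of 28 pair ratios differed instead of 16. In this exact test the 16 pairs were each at p = 0.0312, the smallest that 64 swaps give, and at 0.0547 after adjustment over the 28. With a library left out, 16 to 17 pairs differed, the added pair being Col6a1 to Col12a1 without gmASTR library 5 (-0.77, exact permutation test, adjusted p = 0.0357). The basement membrane partners higher in wmASTRs numbered 1 instead of 2 without scaling factors and with gmASTR library 5 and wmASTR library 4 left out, and 0 to 2 with any library left out. Differences that did not pass the test changed sign in some settings. Col4a6 had a log2FC of 0.46, and of -0.60 with limma-voom, -0.097 with the replicate block, -0.31 to 0.89 with any library left out and -0.42 with both libraries left out. The Col4a1 to Col6a2 ratio had a difference of -0.02, and of -0.14 to 0.045 with any library left out and 0.059 with both. With both left out, the Col4a1 to Col12a1 ratio went from 0.18 to -0.018, Col6a2 to Col12a1 from 0.20 to -0.078, and Col8a1 to Col12a1 from 0.04 to -0.14, and with any library left out the values were -0.0026 to 0.32 for Col4a1 to Col12a1 and -0.17 to 0.25 for Col8a1 to Col12a1. Depth limits Col26a1, Col4a6 and Itga10, which had 0 counts in some libraries.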
